A study of Mus musculus with 168 samples.

Results

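The mouse genome names many genes Zfp followed by a number, for zinc finger protein, and the ones examined here carry a number of 3 digits and nothing else. Membership was decided by the symbol and by brightness: a gene needed a probe set that names it alone, its brightest probe set over all arrays stood for it, and that probe set had to reach a mean signal of 32. Of 263 such genes, 216 reached it and 47 did not, and the 216 members are among 12752 genes that passed the same limit. No member was chosen by how it changed, but the family was put forward with its changes against sham already known. Counts and medians against sham therefore describe the genes and are no evidence about them.

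Most of these genes encode C2H2 zinc finger proteins, in which each finger folds around a zinc ion and a row of fingers reads a stretch of DNA. Many also carry a KRAB domain, which recruits the co-repressor Trim28 (KAP1) and through it the histone methyltransferase Setdb1, and such proteins are best known for silencing retroelements. They form one of the fastest expanding gene families of mammals, often as neighbouring copies in clusters. A minority lack KRAB and act elsewhere: Zfp207 (BuGZ) binds the spindle checkpoint protein Bub3, Zfp521 and Zfp423 are large cofactors of Ebf factors in neural development, Zfp503 (Nolz1) is a factor of the developing striatum, and Zfp365 (DBZ) binds Disc1.

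The data were whole-genome expression arrays of 7 brain regions, 1 array for each region of each of 3 mice at 8 time points, and the question was how adult brain regions respond to hypoxia that can precondition them. The treated groups were male C57BL/6 mice of 8 to 9 weeks exposed to 8% O2 in chambers and killed after 1 h (H1) or 3 h (H3), or exposed for 3 h and returned to room air for 1, 3, 6, 12 or 24 h (R1, R3, R6, R12, R24). The sham group (0hr) breathed room air for 3 h in such a chamber and then went back to home cages for 24 h. All mice were wild type, and by the methods 24 mice gave all arrays, so the 7 regions of a group share mice and the changes against sham share the sham arrays. Hour of the day and time point cannot be told apart, since the sham mice were killed at 1 time only.

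The region labels were checked against marker genes. The mean signal without the top and bottom 2% of probe sets lay between 125 and 125.001 on every array. Of the region markers, 3 of 5 were highest in cortex in sham mice, 5 of 6 in hippocampus, 5 of 5 in striatum, 6 of 6 in thalamus, 6 of 6 in midbrain, 5 of 5 in pons and medulla and 6 of 6 in cerebellum. The 3 prime over 5 prime log2 ratio of actin, a sign of RNA quality, ran from 0.116 to 0.511 on H3 arrays, from 0.109 to 0.343 on R1 arrays and from 0.0763 to 0.508 on sham arrays. In tissue samples, fewer cells of a type and less RNA per cell cannot be told apart.

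The promoters of 4 members that the results turn on are printed here so that the start sites of the genes called at H3 can be read beside their values. Zfp866, Zfp950 and Zfp418 were called lower at H3 and Zfp941 higher. Sequences are from RefSeq (GRCm38.p6), read in the direction of the gene over 250 bases before and 50 after the start, and capitals mark GGGCGG and GATTGG (the inverted CCAAT box) on either strand. Zfp866 lies at chr8:69774862-69775161 on the minus strand, Zfp950 at chr19:61140791-61141090 on the minus strand, Zfp418 at chr7:7171103-7171402 on the plus strand and Zfp941 at chr7:140822129-140822428 on the minus strand.
Zfp866: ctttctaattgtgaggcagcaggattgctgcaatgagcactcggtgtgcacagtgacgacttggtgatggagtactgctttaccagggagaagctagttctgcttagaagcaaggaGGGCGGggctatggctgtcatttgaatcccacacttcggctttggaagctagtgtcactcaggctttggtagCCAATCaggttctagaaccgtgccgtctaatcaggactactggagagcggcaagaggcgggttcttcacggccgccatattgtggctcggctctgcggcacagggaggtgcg
Zfp950: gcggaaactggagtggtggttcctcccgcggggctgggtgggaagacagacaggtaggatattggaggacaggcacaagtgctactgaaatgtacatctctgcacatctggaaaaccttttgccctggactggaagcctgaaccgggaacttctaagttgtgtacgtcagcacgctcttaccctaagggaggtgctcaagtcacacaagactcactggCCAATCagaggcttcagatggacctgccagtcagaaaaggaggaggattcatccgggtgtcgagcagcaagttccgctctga
Zfp418: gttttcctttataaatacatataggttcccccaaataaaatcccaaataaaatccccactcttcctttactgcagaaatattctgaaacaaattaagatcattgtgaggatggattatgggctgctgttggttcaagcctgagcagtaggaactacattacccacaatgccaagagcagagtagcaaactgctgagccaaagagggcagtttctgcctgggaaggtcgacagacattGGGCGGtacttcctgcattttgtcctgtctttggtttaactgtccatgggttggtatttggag
Zfp941: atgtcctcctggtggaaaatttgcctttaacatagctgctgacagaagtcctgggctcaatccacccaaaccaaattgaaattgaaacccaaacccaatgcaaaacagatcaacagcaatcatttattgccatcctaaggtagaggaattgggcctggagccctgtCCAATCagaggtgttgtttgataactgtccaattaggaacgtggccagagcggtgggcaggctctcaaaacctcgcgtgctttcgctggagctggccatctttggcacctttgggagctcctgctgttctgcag
RefSeq promoters were matched for 179 of the 216 members, and 6 motifs were searched on both strands in 1 promoter of each gene. GATTGG was present in 31.3% of the members' promoters and in 16.6% of 27025 promoters of all genes. GGGCGG was present in 51.4% of the members' promoters and in 35.9% of all, and CCGGAAG, an Ets motif, in 17.9% and 9.12%. ACGTG, 1 form of the core of the hypoxia response element, was present in 22.9% of the members' promoters and in 19.7% of all. Other forms of this core were not searched, here or in the 4 promoters shown. CACGTG, which contains ACGTG, was present in 8.38% and 7.24%. TATAAA was rarer in members, at 6.7%, than among all genes, at 14.2%. Members had a median of 16 CG dinucleotides per promoter, against 7 over all genes. All genes here include genes that code for no protein, and a match describes letters only. Of the 4 promoters shown, those of Zfp866, Zfp950 and Zfp941 hold GATTGG, those of Zfp866 and Zfp418 hold GGGCGG, and that of Zfp941 alone of the 4 holds ACGTG.

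Members were dim and often neighbours. The median of their mean signals was 104, within a range of 32.2 to 853, against a median of 162 over all genes; 65 members lay under 64 and 21 over 256. The brightest were Zfp207 at 853, Zfp622 at 772, a protein of ribosome maturation, and Zfp365 at 741. Zfp850, Zfp853 and Zfp454 lay just inside the limit at 32.2, 32.9 and 34.3, and Zfp182, Zfp111 and Zfp783 just outside it at 31.5, 31.3 and 31.3. By RefSeq, 54 members lie on chromosome 7, 28 on chromosome 17 and 20 on chromosome 8, and 93 of the 216 have another numbered Zfp gene as the next protein-coding gene. Of the members' probe sets, 17 carry the suffix _s_at or _x_at, by which the manufacturer marks probes shared by several transcripts, so copies of a cluster cannot be kept apart there.

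As a group, members were slightly lower than in sham tissue at the end of hypoxia and 1 h after it. For each array, the deviation of every member from its mean over the sham arrays of the region was taken on the scale of log2(signal + 16), and the median over the 216 members was used. This median lay between -0.14 and -0.03 on the 21 H3 arrays and between -0.14 and -0.02 on the 21 R1 arrays, against -0.04 to 0.03 on the 21 sham arrays. It was below 0 on 21 of 21 arrays at H3 and on 21 of 21 at R1. At H1, 11 of 21 arrays were below 0, and at R3, R6, R12 and R24 the counts were 6, 5, 5 and 10. H3 arrays lay wholly below the sham arrays of their own region except in thalamus, where the groups overlapped, and R1 arrays lay wholly below them in each of the 7 regions. In cerebellum the H1 arrays too lay wholly below the sham arrays (-0.06 to -0.01), and the R3, R6, R12 and R24 arrays lay wholly above them, as at R6 with 0.035 to 0.058 against -0.004 to 0.007 in sham mice. In the other 6 regions the arrays of these 5 times overlapped the sham arrays. The sham arrays of cerebellum lay closest together, with an SD of 0.006 against 0.016 to 0.042 in the other 6. From R3 on, the group means ran from 0.018 to 0.043 in cerebellum and from -0.028 to 0.034 in the others. Among these were 0.034 in thalamus at R3 and 0.031 in midbrain at R6.

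**Figure D1:**
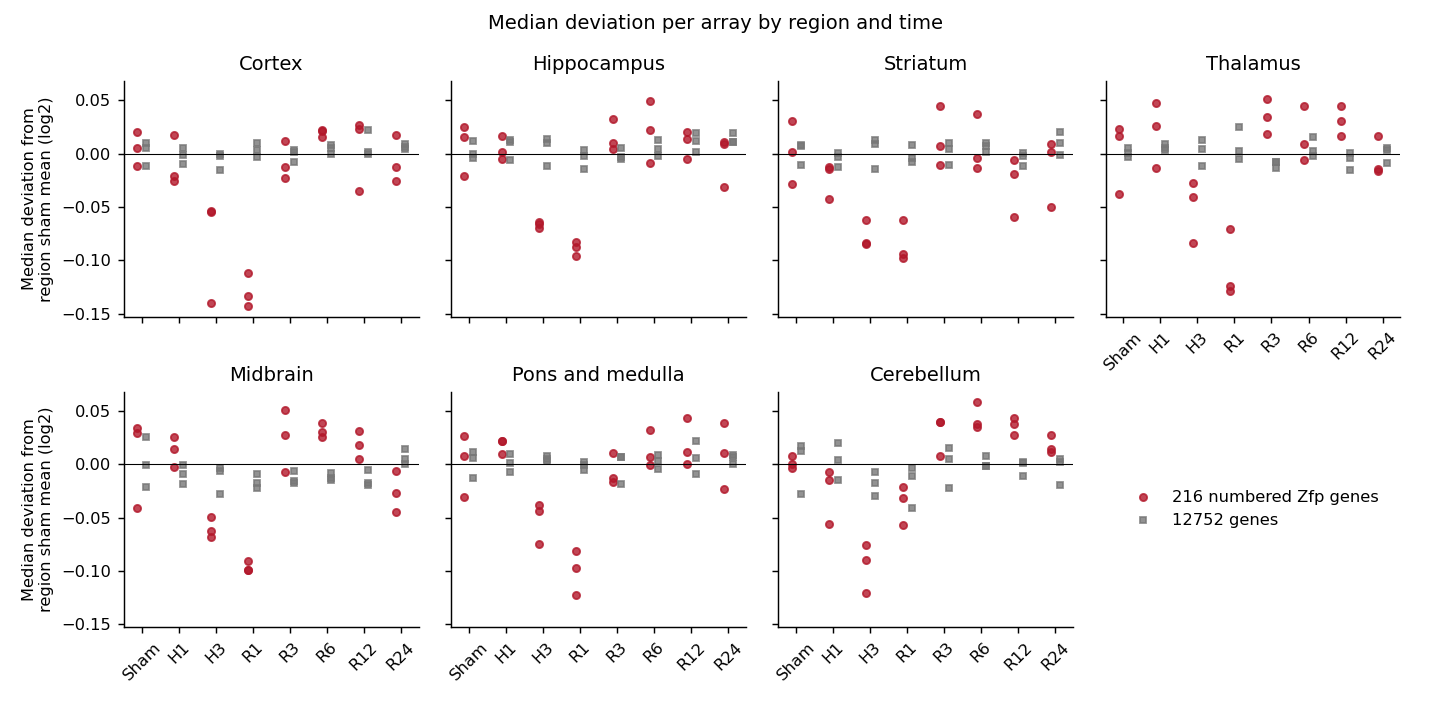
Median deviation of each array from the sham mean of its region (y axis, log2 scale) by time (x axis, sham first), with circles for the 216 numbered Zfp genes and squares for the 12752 genes, 3 arrays per group. At H3 and R1 all circles lie under 0, and from R3 on they lie around 0, in cerebellum above the sham arrays.

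By region, the median log2 change of the members at H3 was -0.10 in cortex, -0.07 in hippocampus, -0.09 in striatum, -0.05 in thalamus and midbrain, -0.04 in pons and medulla and -0.11 in cerebellum. The median over all genes lay between -0.02 and 0.00 in the same comparisons. At R1 the members' median was -0.12 in cortex, -0.10 in hippocampus, striatum and midbrain, -0.13 in thalamus, -0.12 in pons and medulla and -0.04 in cerebellum, against -0.02 to 0.01 over all genes. Cerebellum thus had the lowest of the 7 medians at H3 and the highest at R1. Its change at R1 was spread in both directions, with the 10th percentile of members at -0.40 and the 90th at 0.25. The members' median was shallower where signal was high: over the 21 members above 256 it was -0.02 at H3 and 0.05 at R1, while over the 65 members between 32 and 64 it was -0.11 and -0.13. All genes ran the same way, with 0.01 at H3 and 0.03 at R1 above 256 and -0.02 and -0.05 between 32 and 64. Members with a numbered Zfp neighbour had medians of -0.10 at H3 and -0.13 at R1, and the 123 others -0.04 and -0.07. The 93 were also dimmer, with a median signal of 86.8 against 121, and the part of brightness in this was not tested.

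**Figure D2:**
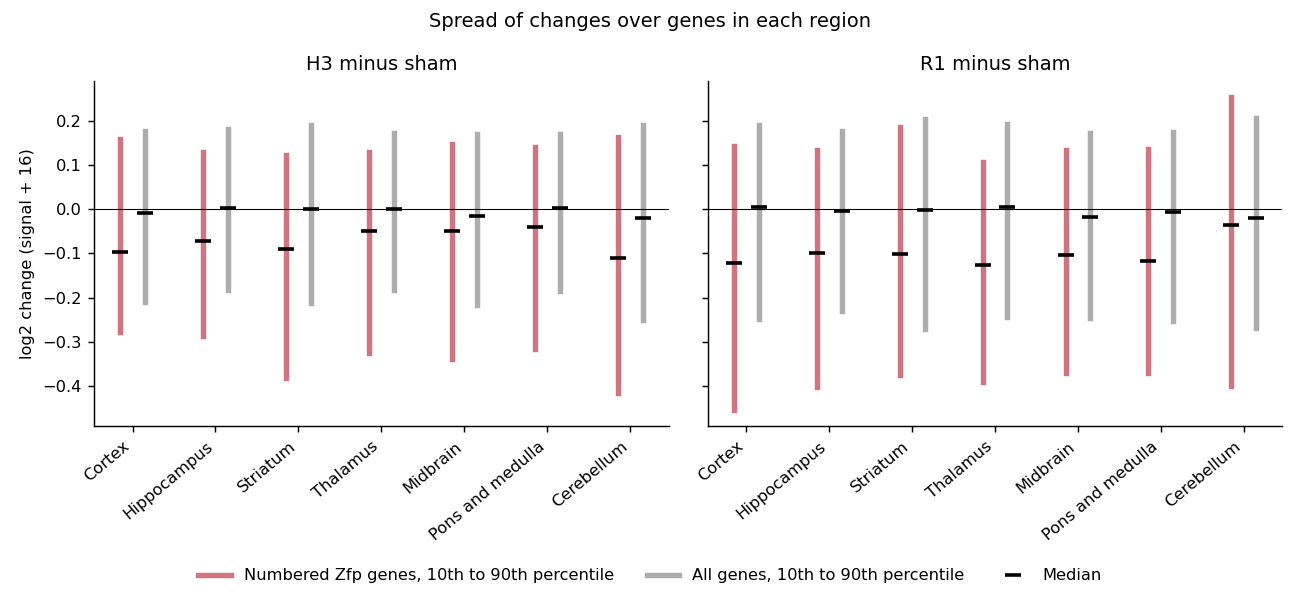
Change against sham (y axis, log2 of signal + 16) in each region at H3 (left) and R1 (right), with bars from the 10th to the 90th percentile and black marks at the median, for the members (red) and all genes (grey). The members' medians lie under those of all genes in all 7 regions, least so in cerebellum at R1.

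Single genes were called by limma in each region, with p-values adjusted by Benjamini-Hochberg over 45037 probe sets and a limit of 0.05. At H3, 27 member-region pairs were lower and 1 was higher, with 16 genes among them. Over all 89264 gene-region pairs, 0.263% were lower and 0.185% higher, and 1.3% and 0.549% of all genes were called in at least 1 region. Of the 27 lower pairs, 14 were in cerebellum, 4 in cortex and 3 each in striatum and midbrain. Hippocampus had 2, pons and medulla 1 and thalamus 0. All genes, too, were most often lower in cerebellum. There 8.48% were lower at an unadjusted p under 0.05, against 2.78% to 4.85% in the other regions. At R1, 41 pairs were lower and 5 higher, with 31 genes among them, beside 0.525% and 0.269% of all pairs and 2.44% and 1.14% of all genes. The 41 lower pairs spread over all regions, with 12 in cerebellum, 7 each in cortex, striatum and thalamus and 4 in midbrain. Hippocampus had 3 and pons and medulla 1, and all 5 higher pairs were in cerebellum. The share of all genes called higher in cerebellum alone is not given here, so the place of these 5 is not set beside it. Of all genes, 10.2% were lower in cerebellum at an unadjusted p under 0.05, against 5.96% to 7.72% in the other regions. In cortex, where same-numbered arrays deviated together, the 7 lower pairs at R1 were 15 with the replicate number as a block, beside 1 higher, and the 4 at H3 were 3. At H1 1 pair was called, and at R3, R6, R12 and R24 limma called 0. An unadjusted p under 0.05 was reached there by 98, 79, 97 and 78 of the 1512 pairs. Of these pairs 48, 23, 36 and 44 were lower. Of all genes, 1.62% to 5.03% were lower at such a p, by region and time. Among all gene-region pairs limma called 0.00112% lower at H1, 0.0056% lower and 0.0134% higher at R3 and 0.00224% lower and 0% higher at R6. At R12 and R24 it called 0%. Many calls lay near the limit with 3 arrays a group: without replicate 1 of every group the lower pairs were 1 at H3, and without replicate 2 of every group they were 0 at R1. In all, 119 calls of single members were followed, those of R1 against H3 and R24 against R1 below included. When 1 sham, H3 or R1 array was left out in each region, 64 to 102 of them passed. Without all arrays of replicate 1, 2 or 3 the number passing was 3, 1 and 4. The call of Zfp866 in cerebellum at H3 was the single one that passed in all 12 of these settings.

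Zfp866, a little described zinc finger gene, was the one that fell most widely. In cerebellum its signal was 103, 94.2 and 88.4 on the H3 arrays and 247, 231 and 233 on the sham arrays. The groups were far apart, and the log2 change was -1.19 ± 0.08 (SE; limma, adjusted p = 2.34e-07). In cortex the H3 arrays had 83.2, 74.8 and 69.7 and the sham arrays 104, 130 and 125 (log2 change -0.56, limma adjusted p = 0.00629). Zfp866 was called lower at H3 in 6 regions, by -0.48 to -1.19, but the call in striatum was lost in each of the 12 settings that left out arrays. In thalamus the change was -0.46 with 119, 97.9 and 117 at H3 and 142, 170 and 166 in sham mice, groups that did not overlap but missed the limit (limma adjusted p = 0.147). At R1 it was lower in all 7 regions, by -0.54 in midbrain to -0.76 in cerebellum.

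The time course of Zfp866 had 1 trough. At H1 it was called in no region, with cerebellum nearest at a log2 change of -0.32 and 176, 186 and 201 against 247, 231 and 233 in sham mice (limma adjusted p = 0.302). By R3 the cerebellar arrays were back at 270, 236 and 234. At R24 it was higher than at R1 in all 7 regions by limma, with log2 differences of 0.53 to 0.75 (adjusted p from 1.0e-04 to 0.0224). No R24 array overlapped the R1 arrays of its region, as in pons and medulla with 167, 161 and 162 at R24 against 95.1, 93.6 and 94.7 at R1. This comparison uses no sham array, though it shares the R1 arrays with the change at R1.

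**Figure D3:**
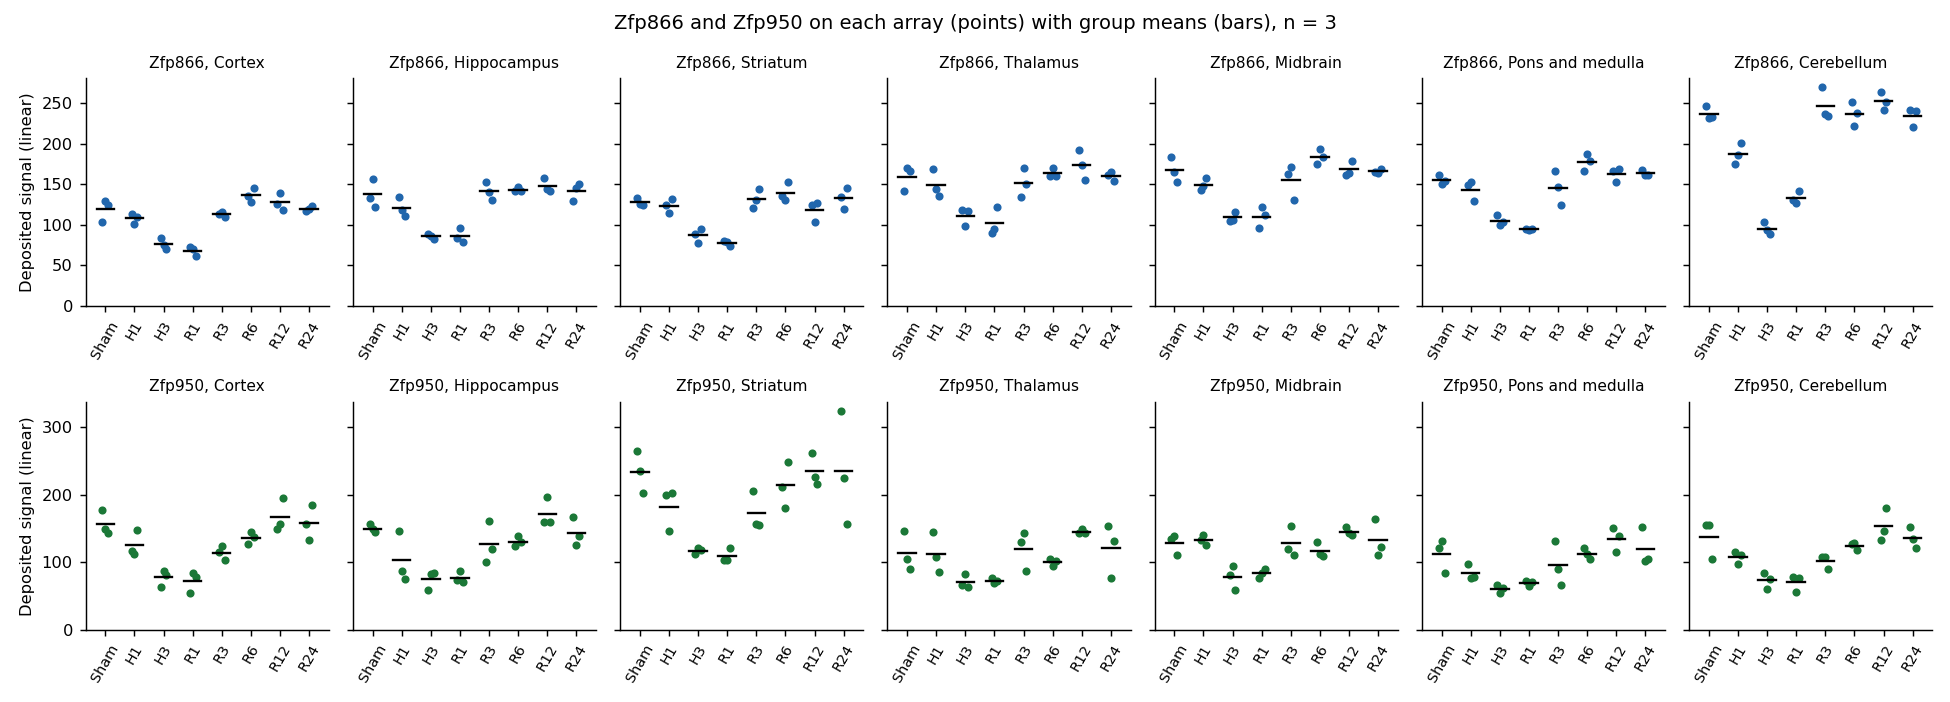
Deposited signal (y axis, linear, from 0) of Zfp866 (top) and Zfp950 (bottom) on each array (points) with group means (bars, n = 3) by time (x axis, sham first) in the 7 regions. Both genes lie lowest at H3 and R1, and cerebellum has the highest sham level of Zfp866, 237 on average.

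Zfp950 and Zfp418 were the other members called in 3 regions at H3. Zfp950 had 63.8, 87.3 and 80.9 at H3 in cortex, against 177, 149 and 142 in sham cortex (log2 change -0.89, limma adjusted p = 0.00991). It was also called in hippocampus (-0.88) and cerebellum (-0.78) at H3, and in cortex (-0.98), striatum (-0.996) and cerebellum (-0.83) at R1. The hippocampal call at H3 had a limma adjusted p of 0.0481, and of 0.0588 with the replicate number as a block. It was lost in each of the 12 settings that left out arrays. Still, in all 7 regions the H3 arrays and the R1 arrays of Zfp950 lay below the sham arrays. A second probe set of Zfp950 at a mean signal of 79.7 did not follow: its mean change over the 7 regions was 0.03 at H3 and -0.03 at R1, beside -0.77 and -0.75 for the brighter one. Another, dimmer at 26.97, changed by -0.28 and -0.31. Which part of the transcript each set reads was not tested.

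Zfp418, whose human counterpart is a KRAB repressor, was near the limit of brightness with a mean signal of 35.7. In cerebellum it had 30.7, 21.7 and 26.9 at H3, against 59, 56.2 and 69.7 in sham mice, without overlap (log2 change -0.87, limma adjusted p = 0.00199). In midbrain the H3 arrays had 4.56, 11.5 and 23.7 and the sham arrays 51.4, 47.2 and 35 (-1.09, limma adjusted p = 0.0165). The cortical change was -0.88 at H3 (limma adjusted p = 0.0468, and 0.0665 with the replicate number as a block) and -1.14 at R1, where the arrays had 4.82, 13.2 and 4.4, against 30.1, 43.3 and 32.6 in sham cortex. Such low values are compressed by the added 16, so the linear difference is larger than the log2 change shows.

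Zfp113 and Zfp235 completed the 5 lowest mean changes at H3. Zfp113 was called at H3 in striatum (-0.76) and cerebellum (-0.69), where it had 31.2, 30.6 and 29.1 at H3 and 47.5, 71.4 and 58.5 in sham mice. Zfp235 was called in midbrain only, with 8.59, 17 and 10.1 at H3 against 36.7, 35.8 and 27.6 in sham mice (-0.83, limma adjusted p = 0.0416). It had 45.3, 44.8 and 33.9 at R3 in midbrain and 12.7, 18.7 and 21.9 at R24, so the later arrays of this dim gene lay on both sides of the sham arrays. Zfp568, named here after its values were seen, was called in cerebellum alone at H3. It is a KRAB protein that silences a placental transcript of Igf2, and it had 40.5, 32.2 and 25.8 at H3 and 74.5, 58.4 and 59.4 in sham mice (-0.72, limma adjusted p = 0.0043).

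Only Zfp941 was called higher at H3. In cerebellum it had 140, 156 and 117 at H3, against 84.4, 49.4 and 69.5 in sham mice, without overlap (log2 change 0.89, limma adjusted p = 0.010). Set against R24 arrays in place of sham arrays, 0 pairs were higher at H3, so this call was lost. In the other 6 regions Zfp941 changed by 0.13 to 0.40 against sham and was not called. Its second probe set changed on average by 0.31 over the regions, beside 0.36 for the first. The 4 other members with the highest mean changes at H3 were called in no region: Zfp711, of the Zfx family, at -0.10 to 0.45, Zfp827 at -0.01 to 0.24, Zfp148 (ZBP-89), which binds GC-rich promoters, at -0.02 to 0.37 and Zfp318 at -0.01 to 0.24.

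At R1, Zfp462 joined the members called in 3 regions. It encodes a large zinc finger protein without KRAB that is needed in neural development. In striatum it had 223, 224 and 180 at R1, against 360, 335 and 329 in sham mice (log2 change -0.67, limma adjusted p = 0.00701). In thalamus the R1 arrays had 202, 204 and 187 and the sham arrays 273, 288 and 308 (-0.51, limma adjusted p = 0.005), and hippocampus changed by -0.47. Zfp462 was hardly lower at H3, with changes of -0.18 to 0.04 and no call. A second probe set at a mean signal of 215 changed by -0.24 on average at R1, beside -0.45 for the brighter one, and another at 48.7 by -0.04.

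The other lowest mean changes at R1 were those of Zfp563 and Zfp937. Zfp563 had 41.7, 32.8 and 40.8 at R1 in striatum, against 75, 81.9 and 73.8 in sham mice (log2 change -0.77, limma adjusted p = 0.00245), and was called in hippocampus too (-0.64). At H3 it had been called in striatum (-0.54) and cerebellum (-0.44). Zfp937 was called in thalamus (-0.60, limma adjusted p = 0.0226). Zfp667 (Mipu1), a KRAB gene first described in rat heart after ischaemic preconditioning, was outside the rule for named genes and was picked with its values known. It had 150, 136 and 128 at R1 in cerebellum, against 208, 227 and 218 in sham mice (-0.60, limma adjusted p = 0.00137), and changed by -0.71 in cortex.

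The 5 higher calls at R1, all in cerebellum, were Zfp105, Zfp110, Zfp654, Zfp707 and Zfp869; Zfp105, Zfp654 and Zfp869 are named as members of this count, after their values were seen. Zfp105 had 99.6, 80.5 and 91 at R1, against 65.8, 52.4 and 59.3 in sham mice (log2 change 0.50). Zfp110 (Nrif), an interactor of the p75 neurotrophin receptor, had 159, 166 and 182 against 123, 125 and 144 in sham mice (0.33). Zfp869 had 285, 248 and 258 against 203, 190 and 207 in sham mice (0.37). In all 5 the groups did not overlap, and the changes were 0.33 to 0.50 with limma adjusted p from 0.0202 to 0.0491. Zfp869 lies on chromosome 8, as Zfp866 does, and in cerebellum at R1 the 2 genes changed in opposite directions. Of the 5 members with the highest mean change over regions at R1, Zfp711, Zfp560 and Zfp941 were called in no region at R1, Zfp110 in cerebellum, and Zfp800 only at H1. Zfp800 was the single call at H1, in cortex, with 68.8, 73.7 and 77.7 against 50.2, 45.1 and 41.6 in sham mice (0.54, limma adjusted p = 0.031, and 0.0553 with the replicate number as a block), beside 0.065% of all gene-region pairs, and had 46.3, 46.6 and 54.9 at H3.

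R1 was also set against H3. This uses no sham array, but it is the difference of the changes that were known when the family was put forward, so its counts and values are a description as well. In that comparison limma called 11 member-region pairs higher at R1 and 0 lower, and all 11 were in cerebellum. An unadjusted p under 0.05 was reached by 91 higher and 105 lower pairs of 1512. Of all genes, 3.06% to 4.59% were lower at such a p, by region. Among all gene-region pairs limma called 0.0986% higher and 0.0627% lower, and in cerebellum alone it called 0.651% of the 12752 genes higher. The largest differences were those of Zfp472, Zfp655, Zfp948, Zfp707 and Zfp120. Zfp472 had 125, 96.5 and 111 at R1 and 61.6, 66.4 and 56.7 at H3 (log2 difference 0.71, limma adjusted p = 0.0103). Zfp655, a KRAB protein that binds Vav1, had 197, 188 and 196 at R1 and 124, 122 and 101 at H3 (0.68, limma adjusted p = 0.00368). Zfp120 had 83.4, 86.4 and 85.9 at R1 and 55.6, 55.7 and 46 at H3 (0.57, limma adjusted p = 0.00341), with 83.3, 93.3 and 82.6 in sham mice. In all 3 the H3 arrays lay below the sham arrays, and the R1 arrays overlapped them.

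The R1 arrays of Zfp707 and Zfp948 lay above their sham arrays, with a call for Zfp707 alone. Zfp707 had 87.3, 70.7 and 88.6 at R1 and 50, 41.7 and 56.1 at H3 (0.59, limma adjusted p = 0.00368), with 63.5, 56.6 and 58 in sham mice. Zfp948 had 48.6, 37 and 52.7 at R1 and 24.9, 17.9 and 32.7 at H3 (0.60, limma adjusted p = 0.0326), and 32.7, 34.2 and 30 in sham mice. Zfp866 was among the 11 with 131, 127 and 142 at R1 and 103, 94.2 and 88.4 at H3 (0.43, limma adjusted p = 0.0148), but in the other 6 regions it differed by -0.14 to 0.01 and was not called. A second probe set of Zfp655 at a mean signal of 123 differed between R1 and H3 by -0.33 to 0.34 over the regions and another at 74.2 by -0.13 to 0.18, and neither was called.

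**Figure D4:**
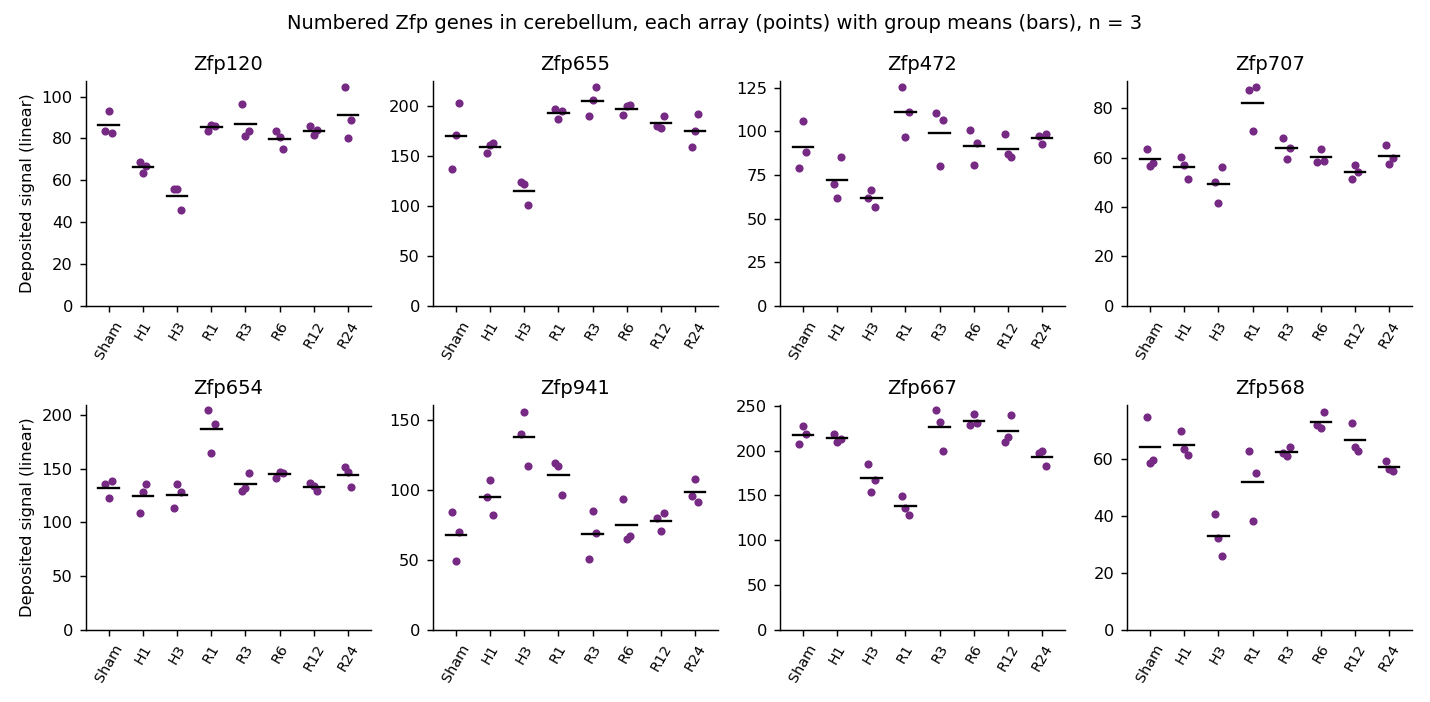
Deposited signal (y axis, linear, from 0) of 8 numbered Zfp genes in cerebellum on each array (points) with group means (bars, n = 3) by time (x axis, sham first). Zfp120, Zfp655, Zfp472 and Zfp707 are low at H3 and not at R1, Zfp654 is high at R1, Zfp941 is high at H3, Zfp667 is lowest at R1 and Zfp568 is lowest at H3.

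Some members had left their R1 level by 24 h. At R24 against R1, 31 of the 1512 member-region pairs were higher and 2 lower, in 21 of the 216 genes. Over all gene-region pairs the shares were 0.459% and 0.337%. The R1 arrays also gave changes that were known when the family was put forward, so these counts and values are a description as well. The largest rises were those of Zfp950, Zfp994, Zfp866 and Zfp462. Zfp950 had 156, 132 and 185 at R24 in cortex, against 54.4, 84 and 78.1 at R1 (log2 difference 0.98, limma adjusted p = 0.00709). Zfp994 had 56.9, 58.4 and 61.9 at R24 and 17.9, 40.6 and 20.7 at R1 in cortex (0.86, limma adjusted p = 0.0405), and Zfp462 had 333, 358 and 381 at R24 and 223, 224 and 180 at R1 in striatum (0.73, limma adjusted p = 0.00432). Zfp809, the KRAB protein that recognises the primer binding site of murine leukaemia virus, was also among the 31, in cerebellum (0.43, limma adjusted p = 0.0305); it was named after its values were seen.

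Zfp189 went the other way. In cortex it had 43.1, 42.9 and 37 at R24, against 108, 94.8 and 101 at R1 (log2 difference -1.04, limma adjusted p = 0.0224). In hippocampus the R24 arrays had 48.2, 84.7 and 49.6 and the R1 arrays 138, 145 and 128 (-1.02, limma adjusted p = 0.0169). Its R1 arrays lay above the sham arrays in cortex, hippocampus and striatum, by 0.81, 0.55 and 0.39, without a call (limma adjusted p of 0.0934 in cortex), and below them in thalamus (-0.39). Across the 7 regions the interaction F-test in limma gave it an adjusted p of 0.0756 at R1 (unadjusted 9.91e-05), which missed the limit. With the replicate number as a block the cortical change at R1 had an adjusted p of 0.0333 in limma.

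Whether a change differed between the 7 regions was tested by an F-test of the interaction in 1 limma fit of all arrays. Of the 216 members, 1 passed at H3, Zfp866 (adjusted p = 0.00107), and 1 at R1, Zfp654 (adjusted p = 0.00326). Over all 12752 genes, 0.0235% passed at H3 and 0.196% at R1. An unadjusted p under 0.05 was reached by 15 members at H3 and 30 at R1. The share of all genes at such a p is not given here, so these counts describe the members only. Without replicate 1 of every group the adjusted p was 0.124 for Zfp866 and 0.289 for Zfp654, without replicate 2 it was 0.442 and 0.701, and without replicate 3 it was 0.314 and 0.0574. Without the H3 arrays of replicate 3 that of Zfp866 was 0.112, and that of Zfp654 was 0.169 without the sham arrays of replicate 2 and 0.212 without the R1 arrays of replicate 1. Zfp866 changed by -1.19 in cerebellum and by -0.46 to -0.59 in the other regions. Zfp654 had 205, 165 and 192 at R1 in cerebellum, against 136, 122 and 138 in sham mice (log2 change 0.45). In cortex Zfp654 had 62.7, 87.4 and 98 at R1, against 120, 122 and 107 in sham mice (-0.44), without a call there (limma adjusted p = 0.152, and 0.0447 with the replicate number as a block), and in the other 5 regions it changed by -0.13 to 0.01. Its probe set is of the kind shared by several transcripts.

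Sham mice showed how the members were distributed over regions without hypoxia. This comparison is not free of the rule, since the limit of brightness used the mean over all arrays, these included. A gene bright in 1 region alone could pass the limit through that region, among the members and among all genes alike. The counts are therefore a description. By an F-test in limma, 108 of the 216 members (50%) differed between regions, against 60.9% of all genes. Cerebellum stood out: 74 members (34.3%) were higher there than in the mean of the other 6 regions, against 20.4% of all genes, and 22 (10.2%) were lower, against 23.1%. Both counts depended on each sham array: without those of replicate 1, 2 or 3 the F-test called 69, 61 and 64 members, and 51, 49 and 41 were higher in cerebellum. In the other 6 regions the share of members higher than elsewhere was 3.24% to 7.87%, under that of all genes in each. The median member was 0.16 higher in cerebellum than the mean of the other regions on the log2 scale, against -0.02 for the median gene. Of the 108, 58 had their highest mean in cerebellum, 13 in striatum and 10 in cortex.

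The 5 members with the largest regional range differed in where they were high. Zfp521 had 764, 692 and 657 in cerebellum and 56.9, 44.7 and 53.1 in cortex, and it was 2.38 ± 0.09 above the other regions in cerebellum (SE, log2; limma adjusted p = 7.46e-13). Its order was cerebellum, pons and medulla, midbrain, thalamus, striatum, hippocampus and cortex, with thalamus and striatum (158, 146, 159 and 157, 152, 146) overlapping, as did hippocampus and cortex. Zfp365 ran the opposite way, at 1433, 1485 and 1591 in cortex and 251, 156 and 200 in cerebellum, with log2 differences from the other regions of 1.62 in cortex and -1.67 in cerebellum. Zfp423 was highest in thalamus (279, 268 and 266) and lowest in cortex (29.9, 30.7 and 60.7), with midbrain (298, 197 and 244) overlapping thalamus.

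Zfp503 was highest in striatum (237, 162 and 149) and in pons and medulla (189, 173 and 171), which overlapped, and lowest in cerebellum (43.7, 39.3 and 28.8). Zfp941, the gene that was higher at H3 in cerebellum, was lowest there in sham mice (84.4, 49.4 and 69.5) and highest in thalamus (231, 231 and 228); its log2 difference from the other regions was -1.04 in cerebellum (limma adjusted p = 3.69e-06). Zfp866 was the reverse, with its highest sham level in cerebellum (247, 231 and 233) and its deepest fall there at H3. At H3 its cerebellar arrays (103, 94.2 and 88.4) lay within the span of those of midbrain (105, 106 and 116) and cortex (83.2, 74.8 and 69.7).

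**Figure D5:**
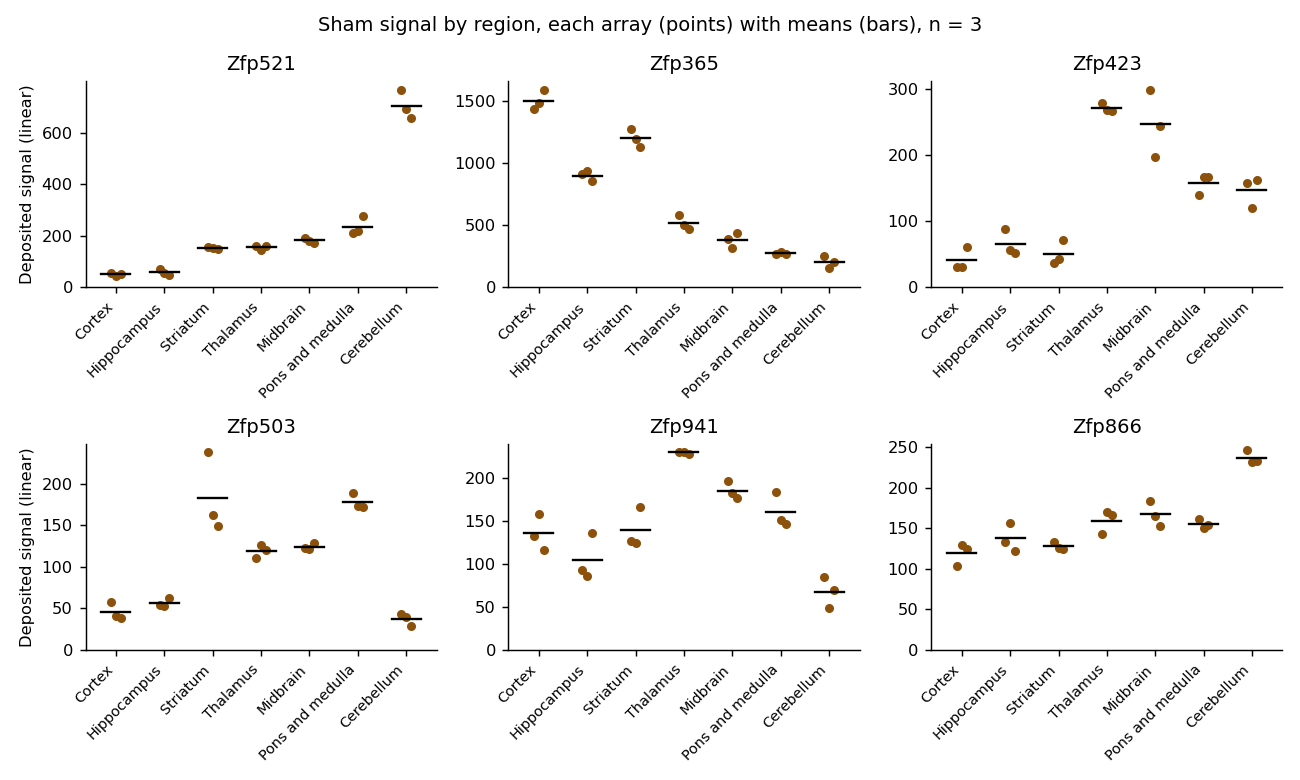
Deposited signal (y axis, linear, from 0) of 6 numbered Zfp genes in sham mice by region (x axis), each array as a point and means as bars (n = 3). Zfp521 and Zfp866 are highest in cerebellum, Zfp365 in cortex, Zfp423 and Zfp941 in thalamus and Zfp503 in striatum.

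Other probe sets of the members gave a second reading. Of the 216 genes, 120 had 2 or more probe sets that name them alone, 218 further sets in all, and 123 of these, of 81 genes, reached a mean signal of 32. Where the chosen set was called at H3 and another such set existed, the other had the same sign in 7 of 9 pairs, and in 1 of them it was called as well, that of Zfp712 in cerebellum. At R1 the sign was the same in 18 of 19 pairs, at R1 against H3 in 2 of 3 and at R24 against R1 in 7 of 9, with no other set called. Mean change over regions was below 0 for 84 of the 123 sets at H3 and for 96 at R1. The sets share genes and arrays with the chosen ones, so these counts are a description as well.

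Of the partners through which KRAB zinc finger proteins act, 33 of 40 genes reached a mean signal of 32. At H3 limma called 0 of their 231 gene-region pairs, with 11 lower and 5 higher at an unadjusted p under 0.05. Of all genes, 2.78% to 8.48% were lower at such a p at H3, by region, and the share higher is not given here. At R1 8 of the 231 pairs of these partners were lower (3.46%) and 0 higher. They were Smarcad1, a chromatin remodeller bound to Trim28, in 4 regions (-0.53 to -0.77), Atf7ip, a partner of Setdb1, in striatum (-0.48) and cerebellum (-0.82), and, in cerebellum, Tasor of the HUSH complex (-0.48) and the DNA methyltransferase Dnmt1 (-0.38). Trim28 itself changed by -0.04 to 0.13 at R1 and was not called. Among other zinc finger families, the 40 genes named Zfp 1 to 99 had 6 lower (2.14%) and 4 higher (1.43%) of 280 pairs at H3 and 10 lower (3.57%) and 0 higher at R1, beside 1.79% and 2.71% of the members' pairs lower at H3 and R1. Their median change lay between -0.21 and -0.08 over the regions at H3 and between -0.22 and -0.09 at R1, beside -0.11 to -0.04 and -0.13 to -0.04 for the members. The 35 Zbtb genes had 0 of 245 pairs at H3, with 27 lower and 4 higher at an unadjusted p under 0.05. At R1 they had 2 lower (0.816%) and 1 higher (0.408%). The 17 Zscan and Zkscan genes had 2 of 119 pairs lower (1.68%) at H3, and 1 lower and 1 higher (0.84% each) at R1. The 11 Zc3h genes had 3 of 77 pairs lower at H3 (3.9%) and 2 at R1 (2.6%). The 16 Klf genes differed in direction. Of their 112 pairs, 2 were lower (1.79%) and 7 higher (6.25%) at H3, and 2 lower (1.79%) and 6 higher (5.36%) at R1. The 18 core clock genes had 3 of 126 pairs higher at H3 (2.38%) and 11 at R1 (8.73%), with 0 lower. Their part in the members' changes was not tested. Over all gene-region pairs 0.263% were lower and 0.185% higher at H3, and 0.525% and 0.269% at R1.

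Markers of the cell types of the brain were rarely called. Among markers with a mean signal of 32 or more, limma called 0 of 8 for neurons, 8 for astrocytes, 8 for microglia, 7 for endothelium, 5 for choroid plexus and 1 for red blood cells at H3 and R1 in any region. At an unadjusted p under 0.05, 2 pairs passed for microglia and 3 for endothelium at H3, and 1 for astrocytes, 4 for microglia and 3 for endothelium at R1. Of 7 oligodendrocyte markers, Opalin was called higher in cortex at both times. Of their 49 gene-region pairs 6 at H3 and 8 at R1 were higher and 0 lower at an unadjusted p under 0.05. The share of all genes higher at such a p is not given here, so the counts of markers are not set beside it. The median change of the oligodendrocyte markers was above 0 in all 7 regions. It was 0.04 to 0.18 at H3 and 0.04 to 0.14 at R1. That of the members was below 0. The part of these markers in the members' changes was not tested. In cerebellum the summed signal of 8 neuronal markers ran from 15740 to 17720 at H3, from 16500 to 16950 at R1 and from 15930 to 16960 in sham mice. The sum of 7 choroid plexus markers there ran from 2747 to 5733 at H3, from 3464 to 4830 at R1 and from 559 to 5134 in sham mice, so the sham arrays differed among themselves in that tissue. In thalamus, where the members' median at R1 was lowest, this sum ran from 486 to 4975 at H3, from 703 to 6316 at R1 and from 534 to 744 in sham mice. The median change of the 5 choroid plexus markers with a mean signal of 32 or more was 0.77 in cerebellum and -0.76 in pons and medulla at H3, and 0.76 in thalamus at R1. The part of this tissue in the members' changes was not tested.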

How the data were processed

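Affymetrix whole-genome mouse arrays measured RNA of 7 brain regions in 3 mice at each of 8 times. The values are linear intensities that the authors deposited, 1 column for each array, and the submitters' notes name GCOS 1.3. The methods describe GCRMA, quantile normalization and division by the sham mean, but the deposited intensities share a trimmed mean of 125 on every array and show neither, so they were used as they are. The genome build and annotation used for the intensities are not given in the sources used here. No column of per-sample values was left out, a count of 0.

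Of 45101 probe sets, 64 controls were left out. Values were taken as log2(signal + 16) and fitted in each region alone (24 arrays, 8 groups) with limma 3.58.1 in R 4.3.3, adjusting by Benjamini-Hochberg over 45037 probe sets with a limit of 0.05. The added 16 understates changes of dim genes, and 23.3% to 30.2% of values on an array lay below it. Sham regions were compared by limma over 21 arrays, and regional differences in change by an interaction F-test over all arrays. The scripts were tested on simulated data first. The number of arrays, 3 a group, limits the precision. The methods speak of separate mice, but the labels give replicate numbers only, so p-values measure the spread between these samples.

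Genes were named by probe sets annotated to 1 gene (34945 sets; 932 name several and 9160 none). Members were named in the text if called in 3 or more regions at H3 or R1, among the 5 lowest or highest mean changes, among the 5 largest sham ranges, among the 5 largest differences at R1 against H3 or R24 against R1, called at another time, among the 3 highest signals, or among the 3 nearest each side of the limit. The members and all lists were chosen with earlier results of these data known.

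Same-numbered sham and treated arrays of a region correlated by -0.102 to 0.251 in their deviations over 42 pairs, and 22 of these were over 0.1. All 3 pairs were over 0.1 in cortex at H3 and at R1 and in thalamus at H3, and not in the other 11 comparisons. The fit without a block was kept for all regions, and where the pairs deviated together the values with the replicate number as a block are given beside those it changes. Alternatives were the pseudocount, normalization, filters on signal, the choice of probe set, the baseline, the methods' test, a replicate block and leaving out arrays.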

Additional observations from a re-analysis of the deposited data

Results flagged for a closer look

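The fall of Zfp866 at H3 differed between regions by the interaction F-test in limma (adjusted p = 0.00107). The log2 change was -1.19 in cerebellum, with 103, 94.2 and 88.4 at H3 against 247, 231 and 233 in sham mice, and -0.46 to -0.59 in the other 6 regions, and all 21 H3 arrays lay below the sham arrays of their region. The change of Zfp654 at R1 differed between regions by the same test (adjusted p = 0.00326). It was 0.45 in cerebellum, with 205, 165 and 192 at R1 against 136, 122 and 138 in sham mice, and -0.44 in cortex, with 62.7, 87.4 and 98 at R1 against 120, 122 and 107 in sham mice. Neither difference passed without all arrays of any 1 replicate number, where the adjusted p was 0.124 to 0.442 for Zfp866 and 0.0574 to 0.701 for Zfp654. That of Zfp866 was 0.112 without the H3 arrays of replicate 3. That of Zfp654 was 0.0996 after centring on the array median, 0.169 without the sham arrays of replicate 2 and 0.212 without the R1 arrays of replicate 1. The part of shared transcripts in the signal of Zfp654 was not tested.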

How the results depend on the processing

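Of 119 calls of single members, 119 passed under a pseudocount of 32 and in a fit on probe sets with a mean signal of 32 or more, 111 with a trended robust fit, 101 under a pseudocount of 1, 100 after quantile normalization, 91 with the mean of all probe sets of a gene and 81 after centring on the array median; of 74 that could be set against R24 arrays, 41 passed. The 1 reversal was Zfp715 in striatum at R1, 0.0414 with the mean of its probe sets against -0.54. Lower pairs at H3 (27) were 16 at a mean signal of 64 or more, 17 by the F-test rule with a 1.5-fold limit, 47 by the methods' ANOVA and t-test and 0 by the methods' t-test after Benjamini-Hochberg. The higher pair at H3 became 0 against R24, 2 by the methods' test and 0 after Benjamini-Hochberg. Lower pairs at R1 (41) were 25 after centring, 22 by the F-test rule and 1 by the methods' t-test after Benjamini-Hochberg, with 61 in the fit on brighter probe sets and 53 by the methods' test. Higher pairs at R1 (5) were 1 under a pseudocount of 1, 3 at a signal of 64, 2 against R24, 2 by the F-test rule, 8 by the methods' test and 0 after Benjamini-Hochberg. For R1 against H3, the 0 lower pairs became 1 in the fit on brighter probe sets and 2 with the trended fit, and the 11 higher became 7 at a signal of 64. For R24 against R1, the 2 lower pairs were 4 under a pseudocount of 32, 4 after quantile normalization, 6 in the fit on brighter probe sets, 0 at a signal of 64 and 6 with the mean of probe sets, and the 31 higher were 20 after centring and 48 in the fit on brighter probe sets. The 1 call at other times was 0 under a pseudocount of 1, after centring, with the trended fit, at a signal of 64, with the mean of probe sets and by the F-test rule, 54 by the methods' test and 0 after Benjamini-Hochberg. The median change at R1 (-0.10) was -0.0681 after quantile normalization, -0.0572 after centring, -0.0785 at a signal of 64 and -0.0821 against R24. Over all 45037 fitted probe sets, dim ones included, quantile normalization shifted the change by a median of -0.0146 to 0.0474. Centring shifted it by -0.0184 to 0.0839. These ranges are over the regions at H3 and R1. The 1 regional difference at R1 was 2 under a pseudocount of 32, 2 after quantile normalization, 0 after centring (Zfp654, adjusted p = 0.0996 in limma) and 4 with the mean of probe sets.

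Leaving out arrays, in 12 settings, gave 1 to 24 lower and 0 to 1 higher pairs at H3, 0 to 44 lower and 0 to 5 higher at R1, 0 to 1 lower and 0 to 12 higher for R1 against H3, 0 to 2 lower and 0 to 31 higher for R24 against R1, and 0 to 1 at other times. The median change was -0.09 to -0.06 at H3 and -0.11 to -0.09 at R1. The sham counts were 61 to 108 for the F-test and 41 to 74 for cerebellum, and each regional difference in change was 0 to 1. The lowest counts came from settings with 2 arrays in every group, which have fewer residual degrees of freedom.

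With the replicate number as a block, the pairs were 32 lower and 1 higher at H3, 58 lower and 6 higher at R1, 1 lower and 15 higher for R1 against H3, 5 lower and 43 higher for R24 against R1 and 0 at other times, and 116 of the 119 calls passed. The block gave 115 members by the sham F-test, 75 higher in cerebellum, and 1 regional difference at H3 and 2 at R1. In cortex the block changed 7 lower pairs at R1 to 15 and 4 at H3 to 3, and in thalamus 0 lower pairs at H3 became 1 (Zfp120, adjusted p = 0.0474 in limma). Of the members, 65 had a mean signal under 64, where the added 16 weighs most.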
